A study of Oryza sativa with 2 samples.

Results

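Lipid transfer proteins and their azelaic acid induced relatives were followed in rice leaves of wild-type and of the *wlp2s* mutant. The set holds the 66 loci, of 26715 in the expression table, whose description contains "lipid transfer protein", "lipid-transfer protein" or "azelaic acid induced", ignoring case. They are spread over 11 chromosomes and represented by 79 transcript models, and the models of a locus were added up. Both libraries came from leaves of seedlings raised on half-strength MS medium, in a chamber held constantly at 32 °C with 12 h of light (300 μmol m−2 s−1) and 12 h of darkness. Wild-type was *japonica* cv. Zhonghua11. The mutant came from an ethyl methanesulfonate (EMS) mutagenised population of that cultivar and carries a single-base change in *WLP2*, a nuclear gene for a pfkB-type protein associated with the plastid-encoded RNA polymerase. Its GEO label is White Leaf and Panicle 2. Each genotype is represented by 1 library, so nothing below has a replicate check and no p-value is given. The age of the sequenced seedlings, the number of plants pooled and any backcross of the line are not given in the sources used here.

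Plant lipid transfer proteins are small, mostly secreted proteins in which a conserved set of cysteines holds a hydrophobic pocket together. They carry fatty acids, acyl-CoAs and other lipids through the cell wall, and in Arabidopsis they are known for the epidermis, where cutin and wax are laid down, and for defence. AZELAIC ACID INDUCED 1 of Arabidopsis belongs to the same fold with a proline-rich extension, and it acts in priming and in systemic acquired resistance (SAR), the raised resistance of leaves far from an infection, together with azelaic acid and glycerol-3-phosphate as mobile signals. Glycolipid transfer proteins share only the words of their name with this family. They have another fold, lie inside the cell and move glycolipids or sphingolipids between membranes.

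Depth was 9080323 estimated reads in wild-type and 9327778 in *wlp2s*. *WLP2* itself (LOC_Os01g63220) had 126 wild-type reads and 178 mutant reads, or 6.61 and 9.10 RPKM, a ratio of 1.38 (exact 95% binomial interval 1.09 to 1.74, counting error only). The paper reports less of this transcript in the mutant than in wild-type by quantitative PCR, at normal and at high temperature. Here its level was higher, not lower, in the library labelled mutant, and gives no support to that label. Every direction below rests on the labels, and *wlp2s* stands for the library labelled so. Leaf markers were present in both libraries. All 10 loci for the Rubisco small chain and light-harvesting proteins were past the filter, with none at 0, and summed to 13262 RPKM in wild-type and 12449 RPKM in *wlp2s*. Their differences on the log2 scale used below ran from -0.98 to 0.67, and the light-harvesting locus LOC_Os01g41710, the farthest down, was at 884 and 448 RPKM. The paper describes seedlings of the mutant as white and gradually dying at the high temperature. It also reports lower transcript levels of photosynthesis genes in the mutant. By the size rule, the leaf markers did not set the library labelled mutant apart. Of the 10 loci, 6 were lower in it and 4 were higher. The light-harvesting loci LOC_Os01g41710, LOC_Os01g52240 and LOC_Os09g17740 had ratios of 0.507 (0.490 to 0.525), 0.729 (0.674 to 0.788) and 0.742 (0.722 to 0.763). The Rubisco locus LOC_Os12g19470 had a ratio of 1.27 (1.24 to 1.30). Counts of 8 of the 10 loci had fractions, as described below. All 5 loci of epidermal regulators (protodermal factors and homeodomain GLABROUS proteins) had reads in both libraries, and they summed to 49.3 and 45.6 RPKM. In the list of dividing cells, 0 of 62 loci past the filter differed by the size rule described below, and in the list of anther-related genes 0 of 8 did. Over all loci past the filter the share was 2.8%. Differences ran from -0.34 to 0.50 among the dividing-cell loci and from -0.85 to 0.98 among the anther-related loci. These lists held 4 and 5 loci at 0 (dividing cells, wild-type and *wlp2s*) and 1 locus at 0 in each library (anther). In whole leaves, fewer cells of a type and less RNA per cell cannot be told apart.

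Across the family, the azelaic acid induced loci were higher in the library labelled *wlp2s*, as was a tandem group on chromosome 10 with few and divided reads. A neighbouring pair on chromosome 4 and 3 loci annotated as lipid transfer protein 3 (LTP3) on chromosomes 11 and 12 were lower. Of the 10 most abundant members, 7 differed by less than 0.25 on the log2 scale, while LOC_Os04g52260 and LOC_Os03g01300 had the largest differences of the family. Levels were compared as log2(RPKM + 1) in *wlp2s* minus that in wild-type, and loci at 1 or more, or at -1 or less, were counted (the size rule). RPKM scales reads to transcript length and library depth, and the added 1 understates differences of weakly expressed genes. Of the 66 loci, 42 had at least 1 RPKM in at least 1 library, and the other 24 had at most 5 reads in either library. Among the 42 loci, 5 were higher and 5 were lower, 11.9% each way. With loci that share reads added up, 2 of 30 items were higher and 3 were lower. Over all 18639 loci past the same filter, 333 were higher (1.79%) and 189 were lower (1.01%), 2.8% in either direction. These shares are under the 11.9% of the members each way, and they carry no test. They are of single loci, so the 30 items with reads added up have no like share beside them. The median difference of the 42 loci was 0.07, with 22 above 0 and 20 below, beside 0.00 (0.00181) over all loci. The filter lets a weak locus pass through the library in which it is high, so these counts describe the 42 loci and not the whole family.

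**Figure D1:**
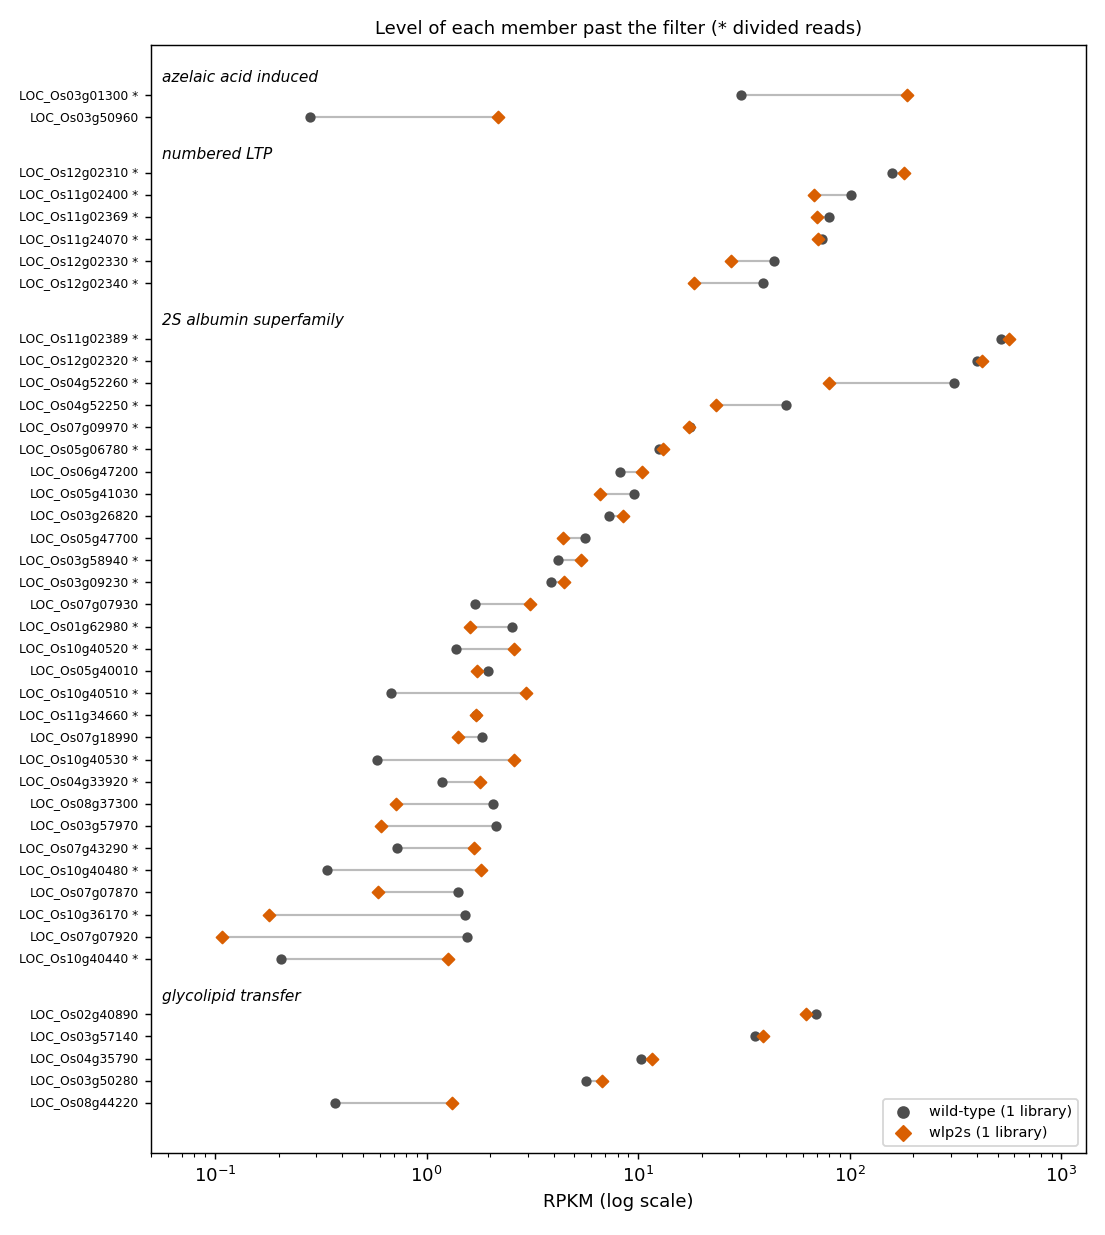
Level of each of the 42 members past the filter in wild-type (grey circle) and *wlp2s* (orange diamond), in RPKM on a log axis, grouped by annotation; an asterisk marks loci whose reads were divided with other loci. The azelaic acid induced loci lie far to the right in *wlp2s*, the chromosome 4 pair to the left, and 7 of the 10 most abundant loci lie within 0.25 on the log2 scale.

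Many counts in the family have fractions, which are read here as reads divided among several loci. Of the 42 members past the filter, 25 (59.5%) had a count that was not a whole number in at least 1 library (tolerance 0.001), compared with 39.0% of all loci past the filter. Of the 10 members past the size rule, 8 had divided reads. By locus number, 25 members fall into 7 tandem groups, defined as neighbours on a chromosome whose numbers lie within 50 of each other. Tandem groups held 7 of the 10 members past the size rule. All folds below are ratios of reads after division by the library totals. Their 95% intervals are exact binomial ones, on counts rounded to whole numbers. The intervals cover counting error only, and not the spread between plants or the way reads were divided.

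The azelaic acid induced group had 2 loci, and both were higher in *wlp2s*. LOC_Os03g01300 had 224 reads in wild-type and 1408 in *wlp2s*. It stood at 30.6 RPKM and 187 RPKM, and the fold was 6.12 (interval 5.31 to 7.08). LOC_Os03g50960 was weak, with whole-number counts of 2 reads in wild-type and 16 in *wlp2s*. Its ratio of 7.79 has an interval from 1.83 to 69.8, so the direction is past counting error and the size is poorly determined. Its transcript models had 1 and 9 reads for the first and 1 and 7 for the second. Reads can be divided between the models of a locus, so the models are not separate checks. These loci are on the same chromosome but far apart by number, and they are not a tandem pair.

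The tandem group on chromosome 10 runs from LOC_Os10g40440 to LOC_Os10g40530 and holds 6 loci annotated with the 2S albumin superfamily, the broad class of secreted proteins with this cysteine pattern. Their transcript models are alike in length, from 727 to 815 bases. All 6 had a larger share of reads in *wlp2s*. LOC_Os10g40510 stood at 0.682 RPKM without and 2.95 RPKM with the mutation, 4.32-fold higher (1.58 to 14.5). LOC_Os10g40530 was at 0.586 and 2.59 RPKM, 4.43-fold higher (1.44 to 17.8). LOC_Os10g40480 was at 0.338 and 1.80 RPKM, and its 2.26 and 12.4 reads give a ratio of 5.32 (1.30 to 53.7). These 3 loci passed the size rule. LOC_Os10g40440 stayed just under it, with a difference of 0.91 from 1.46 and 9.31 reads. LOC_Os10g40520 was at 1.37 and 2.58 RPKM, and the interval of its ratio (0.775 to 4.68) includes equal levels. LOC_Os10g40470 did not reach the filter.

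The group as a whole had 22.3 reads in wild-type and 83.8 in *wlp2s*, 3.66-fold higher (2.30 to 6.24). These loci cannot be read as separate results, because every one of them has divided reads. At LOC_Os10g40470 the counts are multiples of 1/7 of a read, 3 and 27 of them. Adding LOC_Os03g01300 to the 6 loci gave 246.5 and 1492.25 reads. Neither sum is whole, so some reads are also divided with other loci, but no multiples of 1/7 are left. Reads that belong to the chromosome 10 group and reads of LOC_Os03g01300 assigned to it therefore cannot be told apart. The difference of LOC_Os03g01300 itself does not rest on sharing with the chromosome 10 group, while sharing with loci outside the 7 was not examined. If every read of the group had been divided equally with it, 202 of its reads in wild-type and 1325 in *wlp2s* would remain, and the latter is still 5.75 times its full wild-type count after scaling to depth. Taken as 1 item, the 7 loci were 5.89-fold higher (5.14 to 6.76). The U-box kinase locus LOC_Os10g40490, which lies between members of the group by number, had 446 and 422.5 reads, with an interval of its ratio that includes equal levels (0.806 to 1.06).

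**Figure D2:**
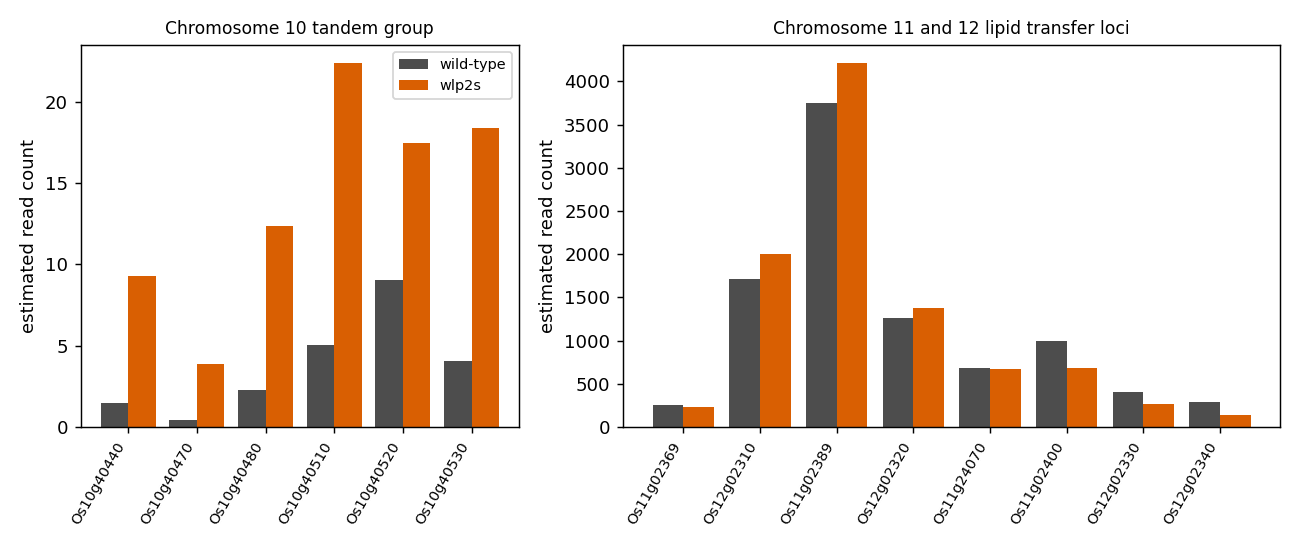
Estimated reads per locus in wild-type (grey) and *wlp2s* (orange) for the 6 loci of the chromosome 10 group (left) and for 8 lipid transfer loci of chromosomes 11 and 12 (right); the vertical scales differ. All 6 loci on the left are higher in *wlp2s* at 22.4 reads or fewer, and on the right the 3 rightmost loci are lower while the most abundant are slightly higher.

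The adjacent loci LOC_Os04g52250 and LOC_Os04g52260 on chromosome 4, also of the 2S albumin superfamily, were both lower in *wlp2s*. LOC_Os04g52260 had 2886 reads in wild-type and 760.5 in *wlp2s*. Its level was 311 RPKM and 79.8 RPKM, 3.90-fold lower (3.60 to 4.23), and in wild-type it was the third most abundant member. LOC_Os04g52250 had 395 and 188.5 reads, or 50.1 and 23.3 RPKM, 2.15-fold lower (1.80 to 2.57). The counts of both loci are whole in wild-type and end in 0.5 in *wlp2s*, and they add to whole numbers. The pair together had 3281 reads in wild-type and 949 in *wlp2s*, 3.55-fold lower (3.30 to 3.82). The next locus by number, LOC_Os04g52270 for a coatomer subunit, had 1187 and 1177 reads, with an interval of its ratio that includes equal levels (0.890 to 1.05). On the other side, LOC_Os04g52230 had 271 and 210 reads and was lower, with a ratio of 0.754 (0.627 to 0.907).

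The ends of chromosomes 11 and 12 carry corresponding sets of lipid transfer loci, and these gave the highest levels in the family. LOC_Os11g02389, annotated with the 2S albumin superfamily, had a wild-type level of 517 RPKM and reached 566 RPKM in *wlp2s*, 1.09-fold higher (1.05 to 1.14). LOC_Os12g02320, of the same annotation, was at 397 and 421 RPKM, with an interval that includes equal levels (0.982 to 1.15). The loci annotated as lipid transfer protein 1, the type best known from the Arabidopsis epidermis, were also abundant. LOC_Os12g02310 was at 159 and 181 RPKM, 1.14-fold higher (1.07 to 1.21), and LOC_Os11g02369 was at 80.1 and 70.0 RPKM, a ratio of 0.874 with an interval that includes equal levels (0.728 to 1.05). LOC_Os11g24070, annotated as lipid transfer protein 12 and far away on chromosome 11, was at 73.9 and 70.8 RPKM.

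These 5 loci share reads. Of the 22 members with fractions finer than 0.5, all sets of up to 7 loci were examined, and only this set of 5 gave whole numbers in both libraries without a smaller set doing so. It had 7662 reads in wild-type and 8493 in *wlp2s*, a ratio of 1.08 (1.05 to 1.11). The search was added after the fractions had been seen. Differences between these 5 loci and the division of reads among them cannot be told apart, and their sum was slightly higher in *wlp2s*.

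The 3 loci annotated as LTP3 that passed the filter were lower. LOC_Os11g02400 had 102 RPKM in the wild-type library and 67.6 RPKM in the mutant, 1.51-fold lower (1.36 to 1.66). LOC_Os12g02330 was at 43.6 and 27.6 RPKM, 1.58-fold lower (1.35 to 1.85). LOC_Os12g02340 was at 39.0 and 18.4 RPKM, 2.08-fold lower (1.71 to 2.57), and was the only numbered lipid transfer protein past the size rule. Together these 3 loci had 1696 and 1088 reads, 1.60-fold lower (1.48 to 1.73), and as a single item with a difference of -0.70 they did not pass the size rule. Their fractions became whole when LOC_Os11g02424 and LOC_Os12g02350, neighbouring loci annotated as RING/U-box proteins, were added, with 2114 and 1348 reads over all 5 loci. LOC_Os11g02424, singled out after its values were seen, was also lower, at 41.4 and 23.0 RPKM. LOC_Os12g02350 was at 2.95 and 3.85 RPKM with an interval of its ratio that includes equal levels (0.767 to 2.31). Differences between these 5 loci and the division of reads among them cannot be told apart, so LOC_Os11g02424 is not a separate result. The other 3 loci annotated as LTP3 (LOC_Os02g24720, LOC_Os11g02350 and LOC_Os12g02300) and LOC_Os03g44000, annotated as lipid transfer protein 5, had at most 2.25 reads in either library. Over the 6 numbered loci past the filter the median difference was -0.39, with 5 below 0.

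**Figure D3:**
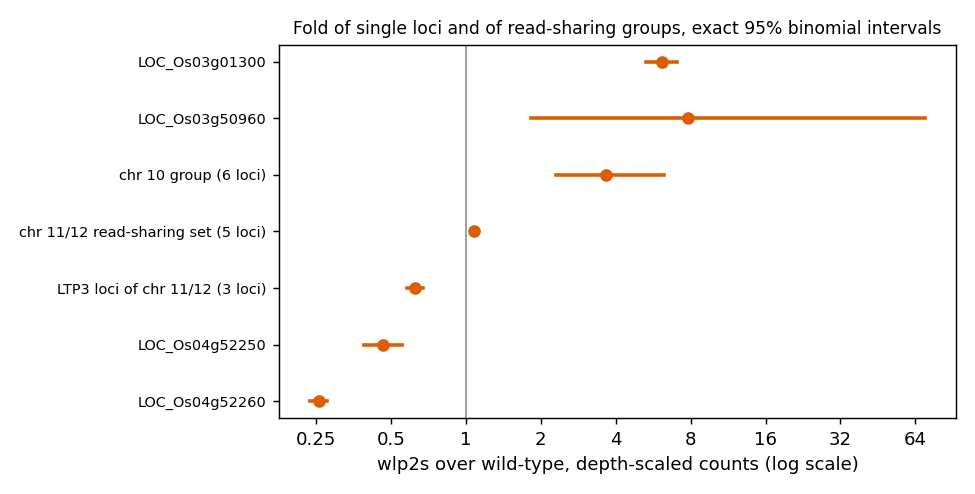
Ratio of depth-scaled reads, *wlp2s* over wild-type, on a log axis with exact 95% binomial intervals (counting error only, 1 library per genotype), for single loci and for groups of loci added up. The azelaic acid induced loci and the chromosome 10 group lie above 1, the chromosome 11 and 12 set of 5 loci lies at 1.08, and the LTP3 loci and the chromosome 4 pair lie below 1.

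The remaining members of the 2S albumin superfamily were weak or differed little. Of all 29 loci of this annotation past the filter, including those described above, 22 were within the size rule. The others were 3 higher (10.3%) and 4 lower (13.8%), beside 1.79% and 1.01% of all loci past the filter. The median difference of the 29 loci was 0.06. LOC_Os07g07920 had 14 reads in wild-type and 1 in *wlp2s*, 14.4-fold lower with an interval from 2.19 to 608. Of its tandem neighbours, LOC_Os07g07870 was lower too, with 7 and 3 reads, and LOC_Os07g07930 was higher, with 15 and 28. The intervals of both ratios include equal levels (0.0696 to 1.83, and 0.938 to 3.66), so these counts cannot show whether the neighbours differed. LOC_Os10g36170 had 8.16 and 1 reads, 8.38-fold lower (1.10 to 365), with divided reads. LOC_Os03g57970 lay just inside the limit, with 17 and 5 reads and a difference of -0.96, while the adjacent LOC_Os03g57980 and LOC_Os03g57990 had at most 2 reads. At intermediate levels, LOC_Os07g09970 was at 17.6 and 17.3 RPKM and LOC_Os05g06780 at 12.5 and 13.1 RPKM. LOC_Os05g41030 was at 9.55 and 6.59 RPKM, 1.45-fold lower (1.04 to 2.02). Of the 10 members past the size rule, 6 never reached 5 RPKM, 4 of them higher and 2 lower. No member had 10 or more reads in either library against 0 in the other, and the 10 members with a 0 in a library had at most 3 reads in the other, so no difference was detectable for them at this depth.

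The glycolipid transfer proteins, which the search words also take in, had whole-number counts throughout. All 5 loci were past the filter and 0 passed the size rule. LOC_Os02g40890, annotated as glycolipid transfer protein 1, was at 68.9 and 62.4 RPKM, and LOC_Os03g57140 was at 35.5 and 38.8 RPKM. Both intervals include equal levels (0.768 to 1.07, and 0.942 to 1.27). LOC_Os04g35790 (10.4 and 11.6 RPKM) and LOC_Os03g50280 (5.68 and 6.72 RPKM) had intervals that include equal levels too. The weak LOC_Os08g44220 had 3 and 11 reads. In sum the group had 849 and 913 reads, a ratio of 1.05 (0.952 to 1.15).

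Weighed by reads, the family was slightly lower in *wlp2s*, and this balance rested on few loci. All 66 loci together had 14546 reads in wild-type (0.160% of the library) and 13758 in *wlp2s* (0.147%), a ratio of 0.921 (0.899 to 0.943). The 10 members with the largest mean RPKM held 85.3% and 87.3% of these reads, and 7 of the 10 differed by less than 0.25. LOC_Os03g01300, LOC_Os04g52260 and LOC_Os11g02400 were the exceptions. Without LOC_Os03g01300 and LOC_Os04g52260, which differed in opposite directions, the ratio was 0.987 and its interval included equal levels (0.961 to 1.01). By Gene Ontology terms in the table, 5 of the 6 loci assigned to the response to biotic stimulus were past the filter. Of these 5, LOC_Os03g01300 and LOC_Os10g40480 were higher by the size rule, beside 1.79% of all loci past the filter. Both belong to the 7 loci taken as 1 item above, so they are not separate results. Of the 7 loci assigned to the extracellular region and past the filter, 0 passed, near the share of 2.8% over all loci.

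**Figure D4:**
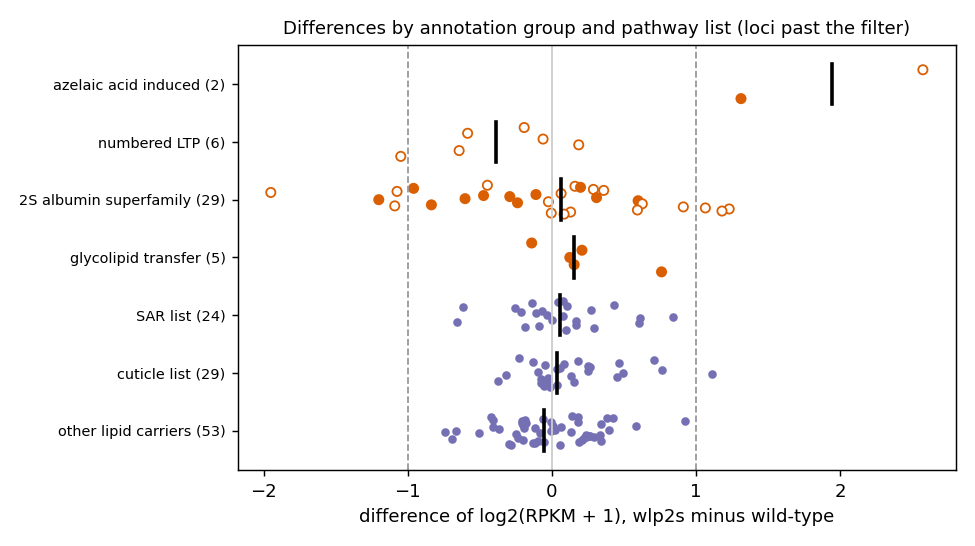
Difference of log2(RPKM + 1), *wlp2s* minus wild-type, for the loci past the filter in each annotation group (orange, filled for whole-number counts and open for divided reads) and in 3 lists of other genes (purple); bars are medians, dashed lines the size rule and numbers in brackets the loci past the filter. The azelaic acid induced loci lie at 1.31 and 2.57, and the chromosome 4 locus LOC_Os04g52260 lies farthest down at -1.95.

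Genes of the SAR pathway outside the family were followed in a list chosen by annotation words. It held 32 loci for glycerol-3-phosphate dehydrogenases, fatty acid desaturases, galactolipid synthases, NPR1-type regulators, TGA factors (TGACG motif-binding) and FMO1-type monooxygenases. Of the 24 past the filter, 0 passed the size rule, which is near the share of 2.8% over all loci, and the median difference was 0.06. The NPR1 locus LOC_Os01g09800, for the receptor-like coactivator of salicylic acid responses in Arabidopsis, was at 19.0 and 20.2 RPKM. The glycerol-3-phosphate dehydrogenase locus LOC_Os07g12640 was at 11.8 and 12.5 RPKM, and LOC_Os09g37620, of the FMO1 type, was at 10.9 and 9.48 RPKM. The galactolipid synthase locus LOC_Os02g55910 was 1.57-fold lower (1.34 to 1.84), and LOC_Os08g07970, a TGA factor, was 1.65-fold lower (1.34 to 2.02). In the other direction, the desaturase loci LOC_Os07g23390 and LOC_Os08g08850 were 1.97-fold (1.23 to 3.27) and 1.56-fold higher (1.22 to 2.00). The TGA factor locus LOC_Os01g59350 was 1.40-fold higher (1.15 to 1.71). Reads were divided at LOC_Os02g55910, LOC_Os07g23390 and LOC_Os01g59350. Of 29 cuticle loci past the filter (fatty acid elongation, reduction and hydroxylation, cutin synthesis and export), 1 was higher by the size rule (3.45%, beside 1.79% of all loci) and 0 were lower, with a median of 0.04. That locus, LOC_Os07g15190, had 0 and 3.50 reads, and the interval of its ratio includes equal levels (0.643 and upwards). The elongase loci LOC_Os02g11070 and LOC_Os05g49900, both annotated as 3-ketoacyl-CoA synthase 11 and with divided reads, were 1.67-fold (1.47 to 1.89) and 1.98-fold higher (1.39 to 2.81).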

How the data were processed

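RNA of 1 wild-type and 1 mutant leaf library was sequenced on an Illumina instrument. TopHat, Cufflinks and Cuffdiff are listed in the submitters' processing notes. Versions, counting tool, genome build and annotation release are not given in the sources used here. The authors deposited estimated counts per transcript model, which are in part fractions, and RPKM values, each a count over model length and library total. The mutant columns are named *wlp2s*. A second deposited table with the authors' fold changes, P-values and FDR, and 4 columns of values per library under other names (wlp1, ZH11), was not used.

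Models were summed to 26715 loci. No test was possible with 1 library per genotype, so a size rule on log2(RPKM + 1) was used (pseudocount 1, at least 1 RPKM in at least 1 library). Members, gene lists and rules were chosen with earlier results of these data known, and some list words were adapted to the annotation. Named loci are all members past the size rule, all azelaic acid induced loci, the 10 members with the largest mean RPKM, any with 10 or more reads against 0, and tandem groups with at least 3 members past the filter. Other loci named were chosen after their values were seen. None of the locus IDs (0 of 66) was found in the reference gene table, so no coordinates or sequences are given and the planned protein features were not run. The search for read-sharing sets was chosen after seeing the data. Tandem order was read from locus numbers. Alternatives covered the pseudocount, filter, scaling, models, divided reads and members. Python 3.11.15, numpy 2.4.6, pandas 2.3.3, scipy 1.17.1 and matplotlib 3.10.9 were used, and the procedure was tested on simulated counts. The simulated counts were whole numbers, and only loci with a mean RPKM of at least 5 were changed. Weak loci and divided reads were thus not covered by it.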

Additional observations from a re-analysis of the deposited data

How the results depend on the processing

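The counts of 5 higher and 5 lower loci depended on weak and divided loci. They were 8 and 8 with a pseudocount of 0.1, 1 and 1 with a pseudocount of 5, 1 and 3 with an RPKM of at least 5, and 1 and 1 over the 17 loci past the filter with whole-number counts. Summing loci that share reads into single items, chosen after seeing the data, gave 2 and 3 among 30 items, and leaving out the chromosome 10 group left 2 higher. The ratio of summed reads was 1.00 over loci with whole-number counts, 0.860 without the member with the most reads and 0.987 without LOC_Os03g01300 and LOC_Os04g52260. The median difference of 0.07 changed sign with whole-number counts (-0.11), without the glycolipid transfer proteins (-0.00402) and without the chromosome 10 group (-0.02). No filter, rescaling, single transcript models and the removal of glycolipid transfer proteins kept both counts within 1.5 times. With a pseudocount of 5, 8 of the 10 loci did not reach the size rule, while LOC_Os03g01300 and LOC_Os04g52260 stayed past it. With read-sharing loci summed, LOC_Os12g02340 (-0.70) also did not reach it. No paired analysis was possible because each genotype has 1 library. Depth limits statements on the 24 loci below the filter.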

Other observations

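Lipid carriers of other families were examined for comparison. Of 53 loci past the filter for Sec14-type phosphatidylinositol transfer proteins, acyl-CoA-binding proteins, START-domain proteins, oxysterol-binding proteins, sterol carriers and ML-domain proteins, 0 passed the size rule, near the share of 2.8% over all loci, and the median difference was -0.06. The abundant acyl-CoA-binding protein locus LOC_Os08g06550, for a small cytosolic carrier of acyl-CoA esters, had 401 RPKM in the wild-type library and 248 RPKM in the mutant, 1.62-fold lower (exact 95% binomial interval 1.52 to 1.72, counting error only), with divided reads. LOC_Os06g02490, of the same annotation, was 1.43-fold lower (1.22 to 1.67), from 81.8 to 57.3 RPKM. Among the Sec14 proteins, LOC_Os02g44820 was at 14.2 and 27.8 RPKM, 1.96-fold higher (1.58 to 2.45), and LOC_Os05g18470 was at 5.17 and 2.69 RPKM, 1.92-fold lower (1.22 to 3.08).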
